A study of Mus musculus with 6 samples.

Results

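A set of 10 genes of regulated cell death was followed in the intestine of BALB/c mice with and without FcεRIα, the IgE-binding subunit of a receptor of mast cells and basophils. They are the gasdermin genes Gsdmd, Gsdmc2, Gsdmc3 and Gsdmc4, the inflammatory caspase genes Casp1 and Casp4, the initiator caspase gene Casp8, the necroptosis gene Mlkl, the death receptor gene Fas and the mitochondrial pore gene Bak1. The genes were taken by name from the deposited tables, where each of the 10 names matched 1 of 56362 features, and all 10 passed the filter on low counts, which left 16732 genes. RNA-seq libraries were made from 3 wild type BALB/c mice and 3 FcεRIα knockout BALB/c mice, 1 library per mouse. All 6 titles include DSS, an abbreviation left unexplained there, so any agent it stands for was shared by both groups. The sources used here do not state how the knockout was made, or the age and sex of the mice. The tissue label reads intestine, while the series title speaks of epithelial cells.

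Gasdermins are pore-forming proteins. When a protease cuts one, its amino-terminal part inserts into the plasma membrane and opens pores through which the cell swells, releases cytokines such as IL-1β and IL-18, and dies, a process called pyroptosis. Gasdermin D is cut by the inflammatory caspases, which are switched on by inflammasomes or by bacterial lipopolysaccharide in the cytosol. In the gut, C-type gasdermins are known as genes of epithelial cells, and pyroptosis of infected enterocytes is known to go with their extrusion into the lumen. Necroptosis is a separate lytic route in which the kinase RIPK3 activates MLKL, and caspase-8 holds that route in check. Apoptosis is started at the cell surface by death receptors such as Fas, which act through caspase-8, or at mitochondria by BAK and BAX. Interferons are known inducers of several of these genes.

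Library totals ran from 19031833 to 23092382 counts. The targeted gene, Fcer1a, was counted 0, 10 and 18 times among wild type mice 1, 2 and 3, against 1, 0 and 0 times among knockout mice, so this gene gave no check of wild type library 1. This library also stood apart in its makeup. The mitochondrial transcript mt-Co1 took 6.83% of its counts, against 1.45% to 2.28% in the other 5 libraries. Its 15 epithelial markers summed to 29767 CPM (the count scaled to a common library total with TMM factors), against 15544 and 14720 CPM in the other wild type libraries and 22301 to 26557 CPM in knockout libraries. Its 9 fibroblast and matrix markers summed to 475 CPM, against 3010 and 4084 CPM in the other wild type libraries and 627 to 2474 CPM in knockout libraries. Each of the 15 epithelial, 9 fibroblast, 6 endothelial and 14 T and NK cell markers was detected in at least 1 library, so the samples held cells other than epithelium. In such bulk tissue, fewer cells of a type and less RNA per cell cannot be told apart. Each of the 10 genes is therefore also given without wild type library 1.

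Of the 10 genes, 9 had a positive fitted fold change of knockout over wild type, beside 44.2% of all genes, and Casp8 was the exception. The fold changes ran from -0.18 to 1.15 on the log2 scale, with a median of 0.74, beside a median of -0.05 over all genes tested. None passed the test. By edgeR's quasi-likelihood method 0 of the 10 had a Benjamini-Hochberg adjusted p under 0.05, and across all genes 0, or 0%, did. DESeq2 also called 0 of the 10 (0.824% of all its genes) and limma-voom 0 of the 10 (0.0120%). At an unadjusted p under 0.05, edgeR had 4 of the 10, Casp4, Mlkl, Fas and Bak1, all higher in knockout gut, beside 6.84% of all genes in either direction and 4.54% higher in knockout. Every knockout library exceeded every wild type library for 2 of the 10, Fas and Bak1, beside 13% of all genes in either direction and 8.73% in that one. The 10 genes were chosen with earlier results of these libraries known, so these shares describe them and support no claim about them as a set.

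**Figure D1:**
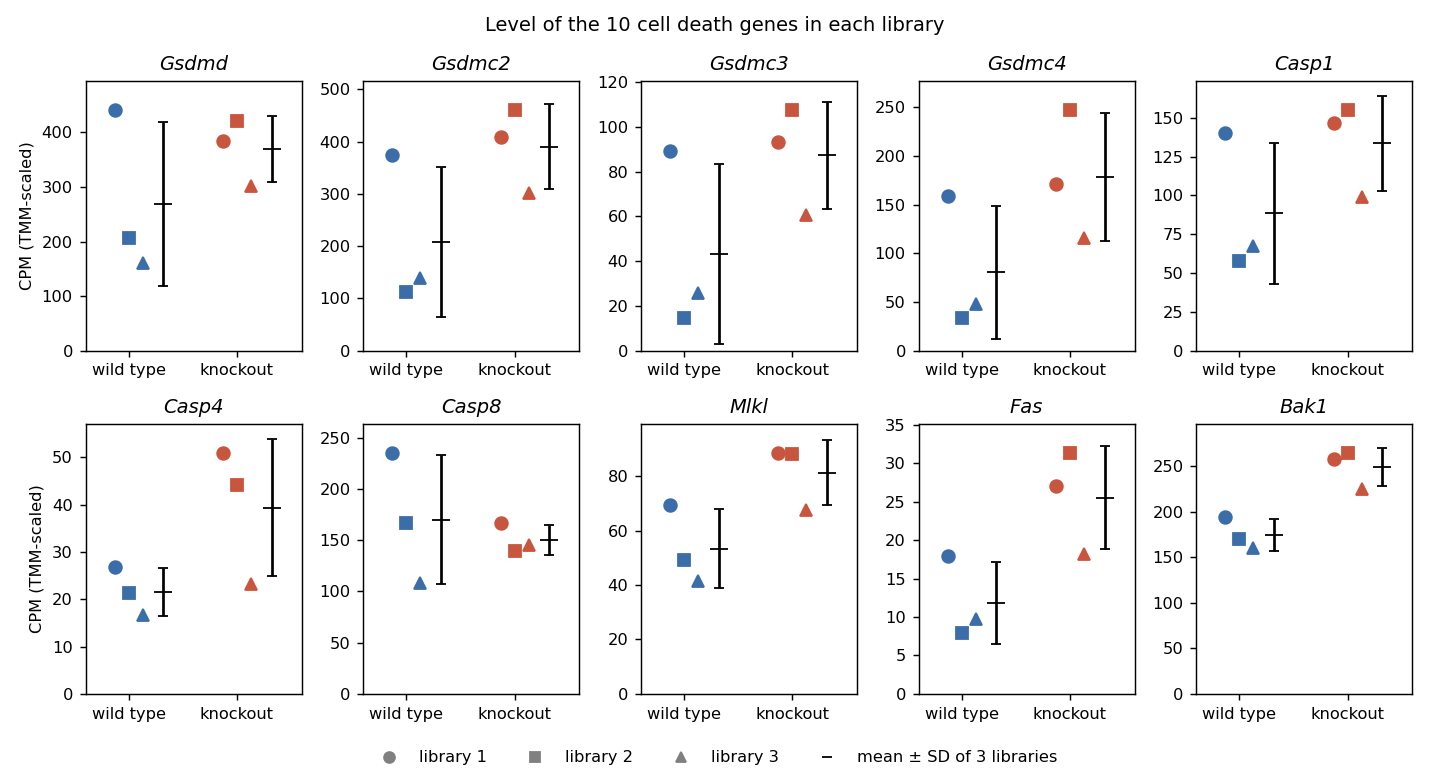
Level of each of the 10 genes in every library, in CPM on linear axes that start at 0. Circles, squares and triangles are libraries 1, 2 and 3 of each group and bars show the mean ± SD of 3 libraries. Wild type library 1 sits beside the knockout libraries for Gsdmd, Gsdmc2, Gsdmc3, Gsdmc4 and Casp1, while the groups part for Fas and Bak1.

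Gsdmd encodes gasdermin D, the substrate through which inflammatory caspases cause pyroptosis (ENSMUSG00000022575, chromosome 15, 75862327 to 75867408, plus strand, GENCODE vM21 on GRCm38). Its level in wild type mice 1, 2 and 3 was 441, 206 and 162 CPM, against 385, 421 and 302 CPM for knockout mice 1, 2 and 3. Wild type library 1 was thus the highest of all 6, and wild type libraries 2 and 3 were the lowest. The group means were 269 ± 150 CPM (SD, n = 3) and 369 ± 60.6 CPM. The difference of 0.46 on the log2 scale (SE 0.39, 95% interval -0.48 to 1.39, edgeR adjusted p = 0.834) was within the spread between libraries. Without wild type library 1 it was 0.97 (SE 0.20, edgeR adjusted p = 0.0679). In a fit that also held the averaged log2 level of 15 epithelial markers (the epithelial covariate) it was 0.06 (SE 0.18).

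Gsdmc2, Gsdmc3 and Gsdmc4 lie side by side on chromosome 15, on the minus strand, at 63824346 to 63845177, 63857724 to 63878558 and 63891264 to 63912297. Together with Gsdmc (63775968 to 63808759) they are the mouse C-type gasdermins. They are close copies. Over the coding sequence, Gsdmc2 and Gsdmc3 were identical at 97.1% of aligned positions, and Gsdmc4 was identical to Gsdmc2 and to Gsdmc3 at 93.0% each, while Gsdmc stood at 82.8% to 83.8% against the other genes. The first 60 coding bases in the GENCODE vM21 transcripts show how reads of these genes can be shared. Capitals mark the 7 positions at which the 4 genes are not all alike, and Gsdmc2, Gsdmc3 and Gsdmc4 do not differ at any position here.
Gsdmc: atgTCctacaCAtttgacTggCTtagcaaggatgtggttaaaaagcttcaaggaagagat
Gsdmc2: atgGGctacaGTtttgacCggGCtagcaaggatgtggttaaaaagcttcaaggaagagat
Gsdmc3: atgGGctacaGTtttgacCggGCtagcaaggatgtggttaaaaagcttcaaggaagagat
Gsdmc4: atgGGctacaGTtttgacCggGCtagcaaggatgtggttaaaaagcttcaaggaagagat
The 60-base coding window in which Gsdmc2, Gsdmc3 and Gsdmc4 are least alike starts at coding base 803 of Gsdmc2 and Gsdmc3 and base 809 of Gsdmc4, counted from 1 at the start codon. Capitals mark the 16 positions at which the 3 are not all alike. Reads over this stretch differ between the genes.
Gsdmc2: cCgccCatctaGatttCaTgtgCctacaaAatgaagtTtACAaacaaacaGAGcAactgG
Gsdmc3: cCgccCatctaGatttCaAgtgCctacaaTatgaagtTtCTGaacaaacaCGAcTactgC
Gsdmc4: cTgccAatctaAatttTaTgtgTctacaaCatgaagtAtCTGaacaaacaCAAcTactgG
Of the 75-base words in their transcripts, 39.3% for Gsdmc2, 35.8% for Gsdmc3, 28.5% for Gsdmc4 and 10.9% for Gsdmc also occurred in another gene of the 4. These are letters of the reference genome, not of BALB/c mice, and the sources used here do not state the read length. The split of counts between the copies is therefore uncertain, and their sum is less so.

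Gsdmc2 was at 374, 112 and 139 CPM among wild type mice, against 408, 461 and 302 CPM among knockout mice. Gsdmc3 was at 89.0, 14.8 and 25.7 CPM among wild type mice, against 93.3, 108 and 60.8 CPM among knockout mice. Gsdmc4 was at 159, 33.5 and 48.2 CPM among wild type mice, against 171, 247 and 116 CPM among knockout mice. In all 3 genes wild type library 1 lay between knockout library 3 and knockout library 1, and the other wild type libraries lay below every knockout library. The wild type spread was wide, with the highest library 3.34, 6.0 and 4.76 times the lowest for Gsdmc2, Gsdmc3 and Gsdmc4, against 1.52, 1.77 and 2.13 times among knockout libraries. Gsdmc was counted 15, 1 and 3 times among wild type mice, against 16, 3 and 11 times among knockout mice, so it made up 0.0172% to 0.150% of the C-type counts.

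The sum of the 4 C-type genes was 623, 160 and 213 CPM among wild type mice, against 673, 815 and 479 CPM among knockout mice. Gsdmc2 held most of it in every library, at 56.5% to 69.8%, followed by Gsdmc4 at 20.9% to 30.3% and Gsdmc3 at 9.25% to 14.3%. As 1 feature the sum differed by 0.98 on the log2 scale (SE 0.53), by 1.77 (SE 0.29) without wild type library 1 and by 0.52 (SE 0.27) with the epithelial covariate. Alone, Gsdmc2 differed by 0.91 (SE 0.48), Gsdmc3 by 1.02 (SE 0.65) and Gsdmc4 by 1.15 (SE 0.61), and none passed the test (edgeR adjusted p = 0.769, 0.793 and 0.769). The 95% intervals, -0.23 to 2.04, -0.52 to 2.56 and -0.31 to 2.61, each include no change and a 4-fold difference. Without wild type library 1 the same differences were 1.59 (SE 0.24), 2.06 (SE 0.37) and 2.08 (SE 0.37), each with an edgeR adjusted p of 0.0611. With the epithelial covariate they were 0.46 (SE 0.22), 0.51 (SE 0.33) and 0.67 (SE 0.36).

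Casp1 and Casp4 are neighbours on chromosome 9, plus strand, at 5298517 to 5307265 and 5308828 to 5336783. Their coding sequences were identical at 57.0% of aligned positions and shared 0% of 75-base words. Casp1 encodes the caspase that inflammasomes activate and that matures IL-1β and IL-18. It was at 140, 57.9 and 67.1 CPM among wild type mice, against 147, 155 and 98.7 CPM among knockout mice, the same order as the C-type gasdermins. The log2 difference was 0.59 (SE 0.37, edgeR adjusted p = 0.791), and 1.05 (SE 0.24, edgeR adjusted p = 0.0756) without wild type library 1. With the epithelial covariate it was 0.20 (SE 0.20).

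Casp4, also called caspase-11 in mice, encodes the sensor of cytosolic lipopolysaccharide. Its pattern was another. It was at 26.8, 21.2 and 16.6 CPM among wild type mice, against 50.9, 44.1 and 23.2 CPM among knockout mice, so 2 knockout libraries stood above the rest and knockout library 3 lay within the wild type range. The group means were 21.6 ± 5.10 and 39.4 ± 14.5 CPM (SD, n = 3). The log2 difference was 0.87 (SE 0.33, 95% interval 0.08 to 1.66), with an unadjusted p of 0.0357 by edgeR's test across all genes and an adjusted one of 0.713. It was 1.03 (SE 0.36) without wild type library 1 and 0.59 (SE 0.35) with the epithelial covariate.

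Casp8 encodes the caspase that death receptors activate and that also restrains necroptosis (chromosome 1, 58795374 to 58847503, plus strand). Its level was 235, 167 and 109 CPM among wild type mice, against 166, 139 and 145 CPM among knockout mice. The 3 knockout libraries lay inside the wild type range, and the top value of the 6 was that of wild type library 1. The log2 difference was -0.18 (SE 0.28, 95% interval -0.86 to 0.50, edgeR adjusted p = 0.898), and its sign turned without wild type library 1 (0.10, SE 0.20). With the epithelial covariate it was -0.46 (SE 0.19, edgeR unadjusted p = 0.0553).

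Mlkl encodes the protein that breaks the plasma membrane in necroptosis (chromosome 8, 111311797 to 111338177, minus strand). It was at 69.5, 49.1 and 41.5 CPM among wild type mice, against 88.4, 87.9 and 67.6 CPM among knockout mice. The groups overlapped only where wild type library 1 lay just above knockout library 3. The means were 53.4 ± 14.5 and 81.3 ± 11.9 CPM (SD, n = 3), a log2 difference of 0.61 (SE 0.23, 95% interval 0.06 to 1.16, edgeR unadjusted p = 0.0345, adjusted p = 0.713). It was 0.81 (SE 0.18, edgeR adjusted p = 0.0726) without wild type library 1 and 0.36 (SE 0.16) with the epithelial covariate.

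Fas encodes a death receptor of the TNF receptor family (chromosome 19, 34290666 to 34327772, plus strand). It was the least abundant of the 10 genes, with 191 to 287 counts in wild type and 417 to 671 counts in knockout libraries. These corresponded to 17.9, 7.89 and 9.78 CPM among wild type mice, against 27.0, 31.3 and 18.2 CPM among knockout mice. Every knockout library lay above every wild type library, but wild type library 1 and knockout library 3 differed by little, and with DESeq2's size factors or upper quartile factors the groups overlapped. The means were 11.9 ± 5.32 and 25.5 ± 6.70 CPM (SD, n = 3), a 2.16-fold difference (95% interval 1.17 to 3.98). The log2 difference of 1.11 (SE 0.37) had an unadjusted p of 0.0214 and an adjusted one of 0.687 by edgeR, and it was 1.49 (SE 0.30, edgeR adjusted p = 0.0677) without wild type library 1. With the epithelial covariate it was 0.75 (SE 0.28). Fasl, the ligand, named here after its values were seen, had 3 to 9 counts per library and did not pass the filter on low counts.

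Bak1 encodes BAK, which opens the outer mitochondrial membrane in apoptosis (chromosome 17, 27019810 to 27029009, minus strand). It had the tightest groups of the 10 genes, at 194, 170 and 160 CPM among wild type mice, against 258, 264 and 225 CPM among knockout mice. The groups did not overlap, and the SD was 9.98% of the mean in wild type and 8.45% in knockout libraries. The means of 174 ± 17.4 and 249 ± 21.1 CPM (SD, n = 3) differed 1.43-fold (95% interval 1.10 to 1.85), or by 0.51 on the log2 scale (SE 0.16). That difference was larger than the spread between libraries, with an unadjusted p of 0.0148, yet its edgeR adjusted p over all genes was 0.684. It moved little with the choice of libraries, from 0.43 to 0.58 when each was left out in turn, and was 0.41 (SE 0.13) with the epithelial covariate. Exons of Bak1 overlap those of Ggnbp1 on the other strand, and the sources used here do not state the strand setting, but Ggnbp1 had 13 to 33 counts per library against 3109 to 5660 for Bak1.

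**Figure D2:**
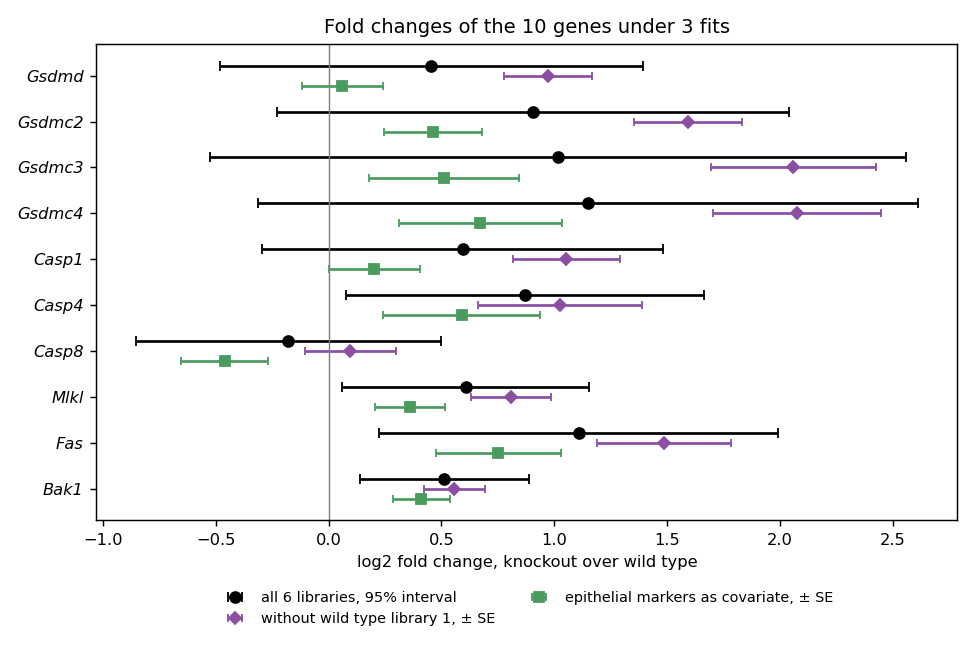
Log2 fold change of knockout over wild type for each of the 10 genes under 3 fits of edgeR. Black circles carry 95% intervals over all 6 libraries, while purple diamonds (without wild type library 1) and green squares (epithelial markers as a covariate) carry ± 1 SE. Bak1 changes least between the fits, and Gsdmd, Gsdmc2, Gsdmc3, Gsdmc4 and Casp1 change most.

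Compared per kilobase of the deposited gene length, the levels spanned more than a factor of 10. In wild type gut Gsdmd was the highest at 150 ± 83.8 RPKM, the CPM divided by that length in kilobases (SD, n = 3), followed by Gsdmc2 at 105 ± 72.7, Casp8 at 92.0 ± 34.2, Bak1 at 73.1 ± 7.30 and Casp1 at 57.8 ± 29.5. Gsdmc4, Gsdmc3 and Mlkl came next at 40.4 ± 34.5, 29.9 ± 27.8 and 26.6 ± 7.24, and Casp4 and Fas were the lowest at 15 ± 3.56 and 8.01 ± 3.59. Within each of the 3 wild type libraries Gsdmd was above Gsdmc2, Casp1 above Gsdmc4, Gsdmc4 above Gsdmc3, Mlkl above Casp4 and Casp4 above Fas, whereas the other neighbours changed places between libraries. The order also rested on wild type library 1. Over wild type libraries 2 and 3 alone, Gsdmc2 had a mean of 63.4 RPKM and came after Gsdmd (102), Casp8 (74.4) and Bak1 (69.0). Likewise Gsdmc4 (20.5) and Gsdmc3 (14.0) then came after Mlkl (22.6). Casp1 (40.8) stayed above all of these, and Casp4 (13.2) and Fas (5.97) stayed the lowest. In knockout gut Gsdmd and Gsdmc2 stood together at 206 ± 33.8 and 197 ± 40.8, and Fas was again the lowest at 17.2 ± 4.52. Bak1, Gsdmc4, Casp1 and Casp8 lay within 81.2 to 104 there. The deposited length of Gsdmc3, 1443 bases, is that of its shortest GENCODE transcript, and the longest has 2179 bases, so its level per length may be overstated against Gsdmc2 and Gsdmc4.

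**Figure D3:**
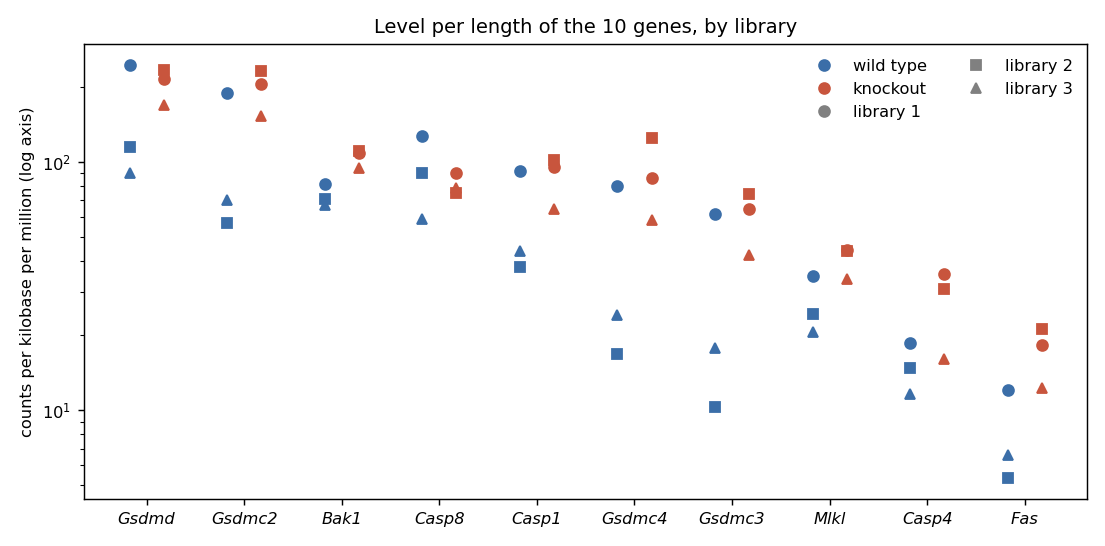
Level per length of the 10 genes in every library, in RPKM (CPM per kilobase) on a log axis, ordered by the mean over both groups. Blue is wild type and red is knockout, and marker shapes give the library. Gsdmd and Gsdmc2 are the highest in knockout gut and Fas is the lowest gene in both groups.

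The 10 genes differed in how they ran across the 6 libraries. Gsdmc2, Gsdmc3, Gsdmc4 and Casp1 ran closely together, with a Pearson r of their log2 levels over the 6 libraries of 0.98 to 0.99 between each pair, whereas Casp8 was at 0.12 to 0.63 with the other 9. The split of counts between the Gsdmc copies is uncertain, and the part of shared reads in the r between them was not tested. The most alike gene was sought among 196 others, namely the rest of the 10 genes and the tested genes of the lists described here. For Gsdmc3 it was Retnlb, a goblet cell protein of type 2 and antibacterial defence (r = 0.995), just ahead of Gsdmc2 (r = 0.994). For Gsdmd and Casp1 it was an epithelial gene, Vil1 (r = 0.994) and Hnf4a (r = 0.989). For Fas, Bak1 and Mlkl it was Nlrc5 (r = 0.996), Irgm2 (r = 0.989) and Naip1 (r = 0.991), of which the first 2 belong to the interferon gamma list. For Gsdmc4, Casp4 and Casp8 it was Ticam1 (r = 0.999), Cyld (r = 0.952) and Ly6g (r = 0.971). Among so many genes and 6 libraries high values arise easily, and all these genes share library 1 of wild type and the group difference, so the values are descriptions only.

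Lists of cell types moved with some of these genes and not with others. The epithelial markers, relative to their mean over the 6 libraries, stood at 0.38, -0.43 and -0.47 log2 units among wild type mice, against 0.29, 0.15 and 0.07 among knockout mice. As for Gsdmd, wild type library 1 was the highest and wild type libraries 2 and 3 were the lowest. Markers of differentiated colonocytes, whose median log2 difference was 0.13 over all libraries and 0.92 without wild type library 1, stood at 1.16, -0.78 and -0.88 among wild type mice, against 0.32, 0.20 and -0.02 among knockout mice. Fibroblast and matrix markers ran the other way in wild type, at -1.54, 0.90 and 1.16, and stood at -1.13, 0.63 and -0.03 in knockout libraries. Macrophage and monocyte markers, from cells that also hold Casp1, Casp4 and Gsdmd, were at -0.85, -0.18 and 0.72 among wild type mice, against -0.79, 1.17 and -0.07 among knockout mice. Neutrophil markers stood at -0.21, 1.03 and 0.67 among wild type mice, against -1.07, -0.10 and -0.33 among knockout mice. Their summed CPM was 1298, 941 and 489 among wild type mice, against 692, 682 and 614 among knockout mice. Wild type library 1 was thus the highest library by sum and the lowest wild type library by mean log2 level. Of the 15 epithelial markers, 14 were higher in knockout gut (median log2 difference 0.36), beside 44.2% of all genes. The epithelial covariate and genotype therefore cannot be fully told apart in these libraries. The part of the epithelial, colonocyte, fibroblast, macrophage and neutrophil markers in the results was not tested. With the epithelial covariate, 2 of the 10 genes, Fas and Bak1, kept an unadjusted p under 0.05 (0.0346 and 0.0184 by edgeR), beside 12.8% of all genes in that fit, and 0 passed after adjustment. With the replicate number as a block, Gsdmc2, Gsdmc3 and Gsdmc4 joined Casp4, Mlkl, Fas and Bak1 at an unadjusted p under 0.05. These were 7 of the 10 genes, beside 5.61% of all genes, again with 0 after adjustment. The replicate numbers come from the titles only and were not taken to pair the mice, so that fit is no paired comparison.

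**Figure D4:**
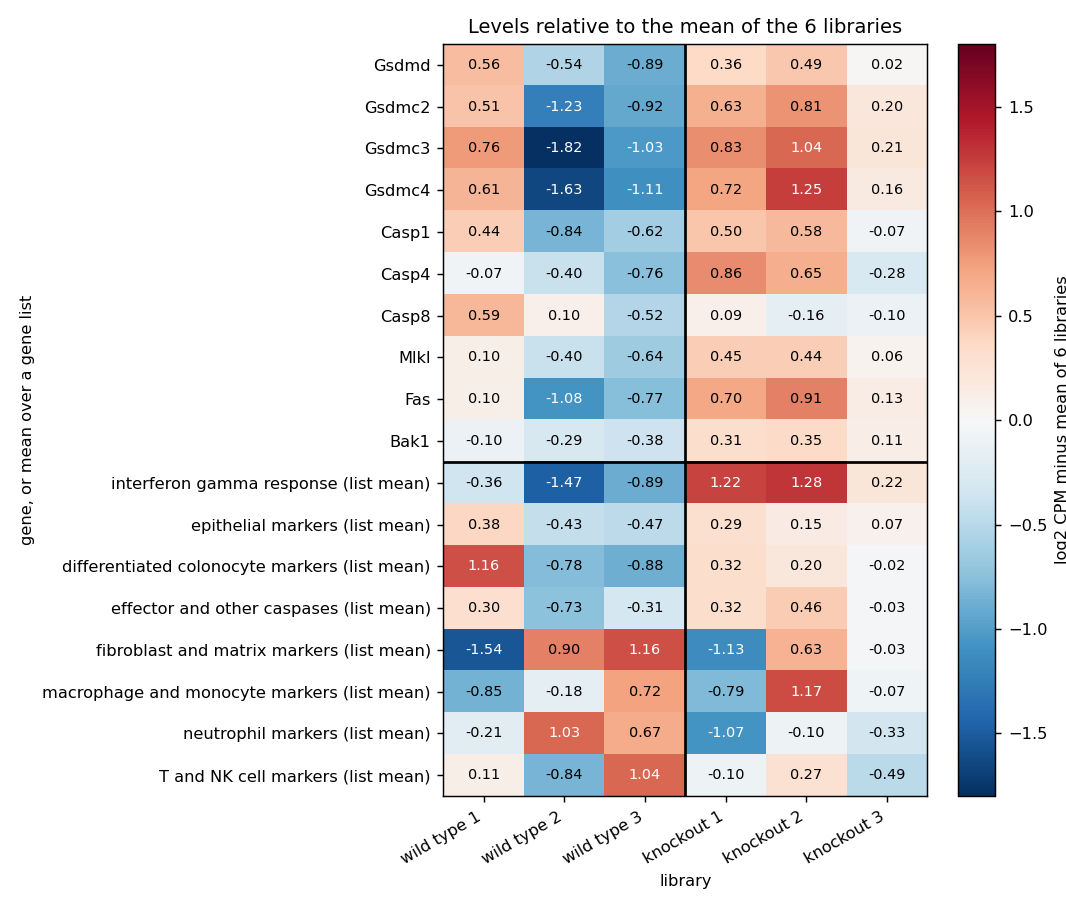
Log2 CPM of the 10 genes, and mean over 8 gene lists, in each library relative to the mean of the 6 libraries. Red is above that mean and blue below, with the value in each cell. In the gasdermin and Casp1 rows wild type library 1 resembles the knockout libraries, as it does in the epithelial marker row, and in the row of the interferon gamma response it lies below all 3.

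Without wild type library 1, 9 of the 10 genes, all but Casp8, had an unadjusted p under 0.05 by edgeR and had no overlap between the groups. The background moved as well, since 25.1% of all genes then had such a p and 47.3% had no overlap, with 2 libraries against 3. The lowest adjusted p of the 10 genes was then 0.0611, and 0 genes of the whole table passed. Without knockout library 1 or knockout library 2, by contrast, 0 of the 10 had an unadjusted p under 0.05, beside 2.35% and 3.11% of all genes. Without wild type library 2 or 3 only Bak1 did, and the share of all genes was not computed for those fits. Wild type library 1 was the highest of its group for all 10 genes, and knockout library 3 was the lowest of its group for 9, all but Casp8. Without knockout library 3 the groups did not overlap for 8 of the 10 genes, beside 23.8% of all genes.

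The other genes of the same routes were counted in lists that were written with earlier results of these libraries known, and 0 genes of these lists passed edgeR's test after adjustment. For reading the list counts below, 44.2% of all genes were higher in knockout gut and 6.84% had an unadjusted p under 0.05 by edgeR. Of 18 tested genes of inflammasomes and pyroptosis, 12 had a higher and 6 a lower mean in knockout gut, with a median log2 difference of 0.37, and 2 had an unadjusted p under 0.05. These were Naip2 and Naip1, sensors of bacterial secretion system proteins. Naip2 was at 91.7, 76.2 and 84.0 CPM among wild type mice, against 138, 153 and 137 CPM among knockout mice, with no overlap, and its log2 difference was 0.76 (SE 0.14, edgeR adjusted p = 0.684). DESeq2 called this gene (adjusted p = 0.00254), 1 of the 18 in the list. Naip1 was at a mean of 473 ± 85.3 CPM among wild type and 670 ± 56.8 CPM among knockout mice (SD, n = 3), a log2 difference of 0.50 (SE 0.21), and its groups also did not overlap. The Naip genes are known as near copies of each other, so that counting could divide their reads, but their likeness was not measured here. The median of this list was 0.07 and 0.14 without wild type library 2 and 3.

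Of 11 necroptosis genes, 8 had a higher and 3 a lower mean in knockout gut (median 0.31), and 2 had an unadjusted p under 0.05. Zbp1, the sensor that engages RIPK3 and is known as an interferon-inducible gene, was at 235, 61.9 and 74.6 CPM among wild type mice, against 357, 385 and 199 CPM among knockout mice. Wild type library 1 again lay within the knockout range, and the log2 difference was 1.34 (SE 0.56, edgeR adjusted p = 0.726), or 2.16 (SE 0.33) without that library and 0.83 (SE 0.27) with the epithelial covariate. Tnfaip3, which encodes A20, an inhibitor of TNF signalling, was at a mean of 85.8 ± 5.18 CPM among wild type and 131 ± 29.0 CPM among knockout mice (SD, n = 3), with no overlap and a log2 difference of 0.61 (SE 0.20). With the epithelial covariate the median of this list was 0.13.

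The death receptor list was evenly split, with 7 of 15 tested genes higher and 8 lower in knockout gut and a median of -0.04. That median was 0.25 with the epithelial covariate, and 0.27 and 0.11 without wild type library 2 and 3. Bid, which carries the signal of caspase-8 to mitochondria, was at 18.3, 14.2 and 18.4 CPM among wild type mice, against 31.6, 34.9 and 21.8 CPM among knockout mice. Its groups did not overlap, and its log2 difference was 0.79 (SE 0.23, edgeR adjusted p = 0.684). Tnfrsf12a, the receptor of the ligand TWEAK, went the other way, at a mean of 37.2 ± 12.5 CPM among wild type and 19.2 ± 7.84 CPM among knockout mice (SD, n = 3, log2 difference -0.96, SE 0.38, and -0.58, SE 0.37, with the epithelial covariate). Of 26 genes of the BCL-2 family and of mitochondrial apoptosis, 11 were higher and 15 lower (median -0.03). The gene of smallest p in that list was Apaf1, the scaffold of the apoptosome, followed by Bid. Apaf1 was at a mean of 37.9 ± 3.71 CPM among wild type and 53.7 ± 4.38 CPM among knockout mice (SD, n = 3), a log2 difference of 0.50 (SE 0.14) with no overlap.

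Among 7 further caspase genes, 5 were higher and 2 lower in knockout gut (median 0.30). For comparison, all 20 genes of the interferon gamma response were higher in knockout gut (median 1.69), and 18 had an unadjusted p under 0.05 by edgeR, while DESeq2 called 10 of the 20. That list was chosen with its response in these libraries known and is no independent evidence of direction. Fas, at 1.11, lay between the median of that list and the medians of the cell death lists. So did Gsdmc4 (1.15), Gsdmc3 (1.02), Gsdmc2 (0.91), Casp4 (0.87), Mlkl (0.61), Casp1 (0.59), Bak1 (0.51) and Gsdmd (0.46), while Casp8 (-0.18) did not.

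**Figure D5:**
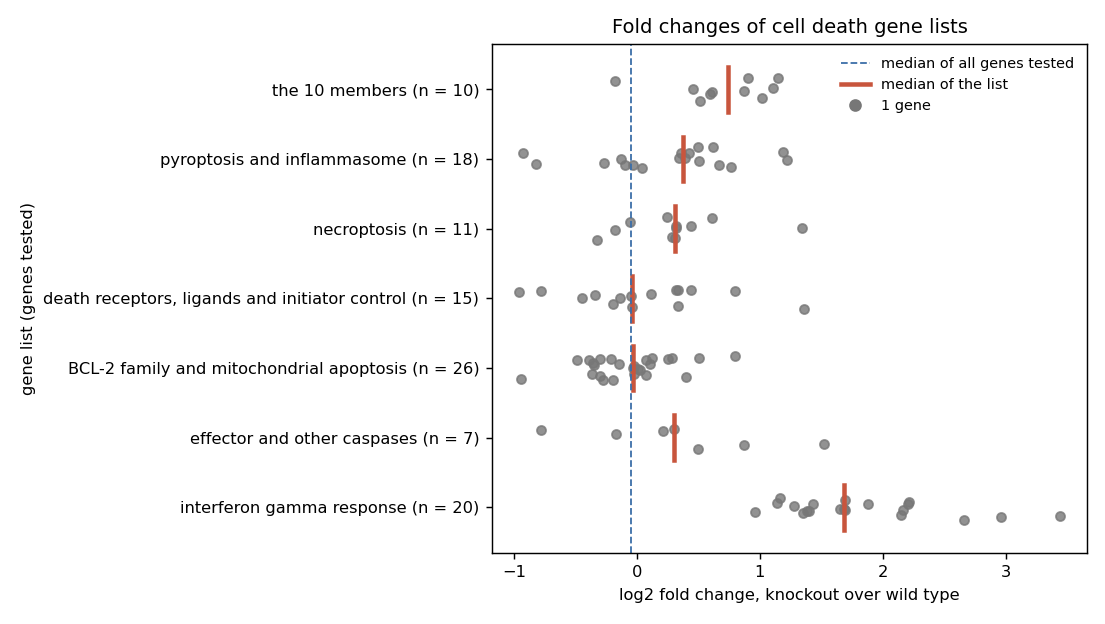
Log2 fold change of knockout over wild type for every tested gene of 7 lists, with 1 grey point per gene and a red bar at each median. The dashed blue line is the median of all 16732 genes tested, -0.05. Medians run from -0.04 in the death receptor list to 0.74 for the 10 genes and 1.69 for the interferon gamma response.

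Type 2 cytokines are known inducers of C-type gasdermins in the gut. Of 16 genes of type 2 cytokines and of the epithelial response to them, 9 passed the filter on low counts, 4 of them higher and 5 lower in knockout gut (median -0.00097). That median was 0.24 with the epithelial covariate and -0.21 without knockout library 2. The genes of smallest p were Il33, an epithelial and stromal alarmin, with a log2 difference of -2.01 (SE 0.84, edgeR adjusted p = 0.726; -0.72, SE 0.73, with the epithelial covariate), and Il13ra1, a receptor chain for IL-13, at 0.42 (SE 0.25; 0.16, SE 0.19, with the covariate). The cytokine genes Il4, Il5, Il13, Il25 and Tslp, named after their values were seen, did not pass that filter. Retnlb, which ran with Gsdmc3, was at 213, 13.5 and 38.2 CPM among wild type mice, against 292, 273 and 118 CPM among knockout mice, again with wild type library 1 among the knockout libraries.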

How the data were processed

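Expression was measured by RNA-seq in 3 wild type and 3 knockout libraries. Values in the authors' deposited tables are estimated counts, 1 per gene and library, and were fractional for 12.4% to 14.8% of features. Reads were processed with TopHat2 2.0.0 and mm10, per the submitters' processing notes. For the counting program, the annotation release and strandedness, the sources used here give nothing. Groups and replicate numbers came from the titles, and the number of mice from the design text. Counts were rounded. All replicate pairs differed by more than counting noise (chi-square per degree of freedom 33.8 to 247).

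Tests used edgeR's quasi-likelihood method (edgeR 4.0.16, R 4.3.3) and TMM factors, after filterByExpr (minimum count 10) had left 16732 genes, with the threshold at a Benjamini-Hochberg adjusted p of 0.05 over all of them. The SE is the log2 fold change divided by the root of the F statistic. DESeq2 1.42.0, limma-voom (limma 3.58.1), other factors and filters, unrounded counts, a replicate block, an epithelial covariate and leaving out each library were alternatives. The steps were tested on simulated counts. Coordinates and coding sequences were read from GENCODE vM21 on GRCm38, called mm10 by UCSC, which matched all 10 identifiers, and alignments were made with Biopython 1.88. The genes and lists were chosen with earlier results of these data known. Named were the 10 genes, Fcer1a, Gsdmc, the most alike gene of each, and the 2 genes of smallest p in lists described gene by gene. Some genes that this rule names are not reported here. Ggnbp1, mt-Co1, Fasl and the type 2 cytokine genes were chosen after their values were seen. Of the lists named, B cell, endothelial and mast cell markers had medians of -0.55, -0.94 and -0.64.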

Additional observations from a re-analysis of the deposited data

How the results depend on the processing

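None of the 10 genes passed under any of the 16 alternatives. Across all genes, 127 passed by DESeq2, 2 by limma-voom and 3 with no filter on low counts, and 0 under the other 13. The number of the 10 genes with an unadjusted p under 0.05 by edgeR was 4 with all libraries (beside 6.84% of all genes). It was 2 with the epithelial covariate (beside 12.8%) and 7 with a replicate block (beside 5.61%). With no scaling factors it was 6 and with upper quartile factors 2, where the share of all genes was not computed. It ran from 0 without knockout library 1 or 2 (beside 2.35% and 3.11%) to 9 without wild type library 1 (beside 25.1%). The number whose groups did not overlap was 2 with all libraries and 3 with no scaling factors. It was 1 with RLE factors, 1 with upper quartile factors and 1 on the scale of DESeq2. When 1 library was left out it ran from 1 to 9. It was 9 without wild type library 1 (beside 47.3% of all genes) and 8 without knockout library 3 (beside 23.8%). Both shares were above that with all libraries, so the background moved as well. For the other changed settings the share of all genes without overlap was not computed. Of 160 fold changes of single genes, 159 kept their sign, and that of Casp8 turned to 0.10 without wild type replicate 1, with a range of -0.41 to 0.10 when 1 library was left out. Titles give both groups the replicate numbers 1 to 3. Deviations of same-numbered libraries from their group means correlated at 0.41, -0.13 and 0.0044, and wild type libraries 2 and 3 went best with knockout libraries 3 and 2, so the numbers were not taken to pair the mice. The lowest count of any of the 10 genes in a library was 191, and whether more depth or more mice would change a call was not tested.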
